A study of Homo sapiens with 6 samples.

Results

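The 45 genes described here were listed as actin cytoskeleton genes and targets of serum response factor (SRF). They encode proteins of the actin cytoskeleton, some of them best known from muscle, together with SRF and its coactivators. They were followed in Panc-1, an established human line of epithelial type derived from a pancreatic carcinoma. They are 45 of the 58735 genes in the deposited count table. The names were selected as a list with results of this same contrast already known, so their values are a description: no p-value is given for them and their counts support nothing by themselves. Of the 45 names, 43 were found as written, and MKL1 and MKL2 were found under their newer names MRTFA and MRTFB. All 45 passed the filter on low counts, CNN1 only through the libraries where it was high.

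Panc-1 cells without any stated genetic change (WT in the labels) spent 72 h in co-culture with cancer-associated fibroblasts (CAF) that overexpressed PAI-1, a secreted inhibitor of plasminogen activators, or with CAF without that overexpression. There were 3 biological replicates of each co-culture, and poly(A) RNA was sequenced. Nothing in the labels tells how the 2 cell types were separated for RNA extraction, which CAF were used, how PAI-1 was overexpressed, or whether the replicates came from separate experiments. Tests therefore measure only the spread between these libraries. The extraction text speaks of a different line, Cal27, with Stattic or DMSO, while the titles, sources and treatments name Panc-1. In bulk RNA, fewer cells of a type and less RNA per cell cannot be told apart.

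Actin monomers assemble into filaments that tropomyosins coat, alpha-actinin and filamin cross-link, myosin II pulls on and cofilin takes apart. The pool of free monomer also feeds back on transcription. MRTFA and MRTFB bind monomeric actin through their RPEL motifs, and when monomer falls they enter the nucleus and act with SRF at CArG boxes, A/T-rich stretches between a CC and a GG. Many genes of the filament system carry such boxes. SRF also works with the ternary complex factors ELK1, ELK3 and ELK4, which respond to ERK signalling and serve the immediate early genes.

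CArG boxes were looked for in the promoter windows of the set, because the set is defined by its link to SRF and the windows show where that link could lie. RefSeq windows on GRCh38.p14 cover 250 bases before to 50 bases after each start site, and 42 of the 45 genes had at least 1. ACTB, MYL9 and TAGLN had no entry. An exact CArG box, whose form reads the same on both strands so that both were covered, was present in 7 of the 42 genes (16.67%). Among all genes tested for expression, 163 of 10737 with a window held 1 (1.518%). The genes of the set had more windows each, at 1.833 against 1.456 over all genes. Counted by window, 9 of 77 windows of the set (11.69%) and 172 of 15636 windows of all tested genes (1.1%) held an exact box. Because SRF targets were listed on purpose, a larger share than over all genes was likely from the start. Nothing is read from that difference. Stretches around the boxes are shown 5′ to 3′ along the gene, with the boxes in capitals.
SRF, chr6:43171209-43171268, plus strand: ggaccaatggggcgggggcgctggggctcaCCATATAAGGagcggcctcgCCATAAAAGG
ACTG1, chr17:81512874-81512903, minus strand: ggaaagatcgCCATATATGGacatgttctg
ACTN1, chr14:68977698-68977767, minus strand: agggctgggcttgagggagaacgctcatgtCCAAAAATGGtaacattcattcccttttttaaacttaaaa
CNN2, chr19:1026489-1026558, plus strand: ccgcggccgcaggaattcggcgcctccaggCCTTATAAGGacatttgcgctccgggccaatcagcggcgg
FHL2 upstream start, chr2:105438575-105438644, minus strand: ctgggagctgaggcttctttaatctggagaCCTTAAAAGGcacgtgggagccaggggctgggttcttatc
FHL2 downstream start, chr2:105399091-105399120, minus strand: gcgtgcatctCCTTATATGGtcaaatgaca
FLNA, chrX:154374689-154374758, minus strand: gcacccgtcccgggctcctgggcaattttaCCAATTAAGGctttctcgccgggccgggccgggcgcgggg
TPM4, chr19:16067335-16067404, plus strand: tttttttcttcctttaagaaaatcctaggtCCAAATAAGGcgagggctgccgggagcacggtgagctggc

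SRF itself held 2 boxes, whose first bases lie 30 and 10 bases before its RefSeq start site. Start sites here are those of RefSeq and can differ from the GENCODE gene starts given below, as they do for SRF. The ACTG1 and FLNA boxes both began 94 bases before a start site, that of CNN2 89 bases before. The boxes of ACTN1 and TPM4 lay farther out, 171 and 173 bases before. With 1 mismatch allowed in the A/T stretch, 13 of the 42 genes (30.95%) had a match, against 9.668% of all tested genes with a window, and the 6 added were ACTN4, CALD1, CAPZB, CFL2, MYL12A and VASP. A match is a description of letters in this window, not a site of binding. The limit given for the shares with exact boxes holds for these shares too.

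**Figure D1:**
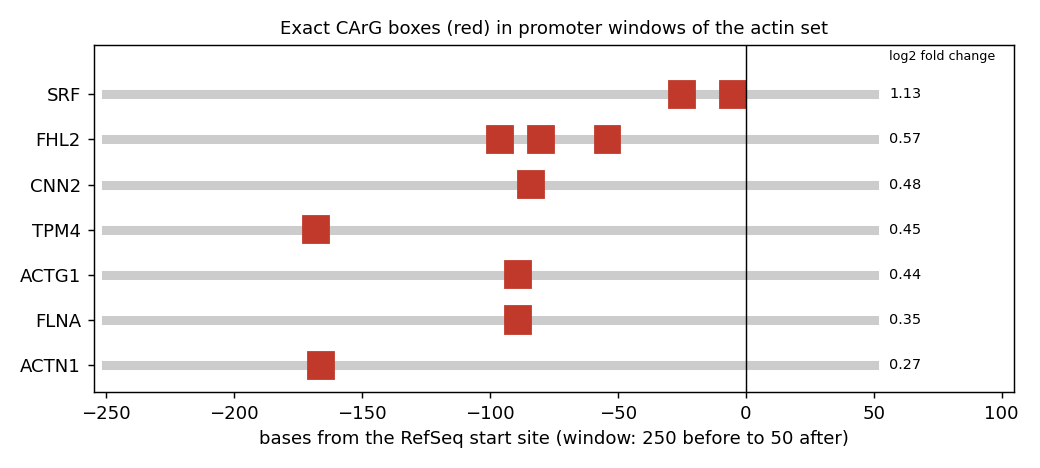
Exact CArG boxes (red blocks) in RefSeq promoter windows of the 7 genes that hold one; the horizontal axis is the distance in bases from the start site, and the number at the right is the log2 fold change, CAF overexpressing PAI-1 minus CAF. The boxes of SRF lie next to its RefSeq start site, and FHL2 has 3 blocks because 1 of its boxes falls in the windows of neighbouring start sites.

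Library totals were 13992583 to 15880653 counts with CAF overexpressing PAI-1 and 13628508 to 16006880 with CAF, so 3 counts in a library correspond to 0.187 to 0.22 CPM, the counts scaled to the library total. Replicate 2 with CAF overexpressing PAI-1 stood somewhat apart: its counts differed from the other libraries of its group with a chi-square per degree of freedom of 9.513 and 6.625, where every other pair within a group lay between 2.585 and 3.724. Its mitochondrial share was 3.78%, against 4.76% and 5.12% in the other libraries of its group and 5.53% to 5.92% with CAF. The part of that difference in the results below was not tested, and counts without this library stand beside those of the gene lists. Epithelial keratins were abundant, with KRT8 at 1056 to 1202 CPM and KRT18 at 718 to 785 CPM with CAF overexpressing PAI-1, against 993 to 1051 and 565 to 607 CPM with CAF. CDH1 and EPCAM were low, at 0.745 to 1.38 and 6.66 to 9.37 CPM with CAF overexpressing PAI-1 and 1.45 to 1.87 and 6.61 to 7.53 CPM with CAF.

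Most of the actin genes rose by a small amount in Panc-1 that had been with CAF overexpressing PAI-1. Of the 45, 31 were higher (68.9%), 4 were lower (8.89%) and 10 did not pass an adjusted p of 0.05 in edgeR's quasi-likelihood test over all genes. Over the 14960 genes tested, 17.2% were higher and 15.0% lower, 32.2% in all. That balance depends on scaling, with 2571 genes higher and 2239 lower under TMM scaling and 1839 higher and 3182 lower with library size alone, where 28 of the 45 were higher and 6 lower. The median log2 fold change of the 45 was 0.27, beside 0.00 over all genes, and 0.24 without replicate 2 of the PAI-1 group, where 29 genes were higher and 3 lower. Sizes were modest: 7 genes were at least 1.5-fold higher, none was 1.5-fold lower, and 9 of the changed genes differed by under 1.2-fold. The 3 libraries of each group did not overlap for 37 of the 45 genes (82.2%), beside 43.4% of all genes tested. Since results of this contrast chose the list, nothing is read from these shares. CNN1, which passed the filter only through the PAI-1 group, is counted in the 31, the 7 and the 37. Nothing is read from its call. The 45 genes together took 3.566% to 3.656% of all counts with CAF overexpressing PAI-1, against 3.139% to 3.169% with CAF, and the groups did not overlap.

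**Figure D2:**
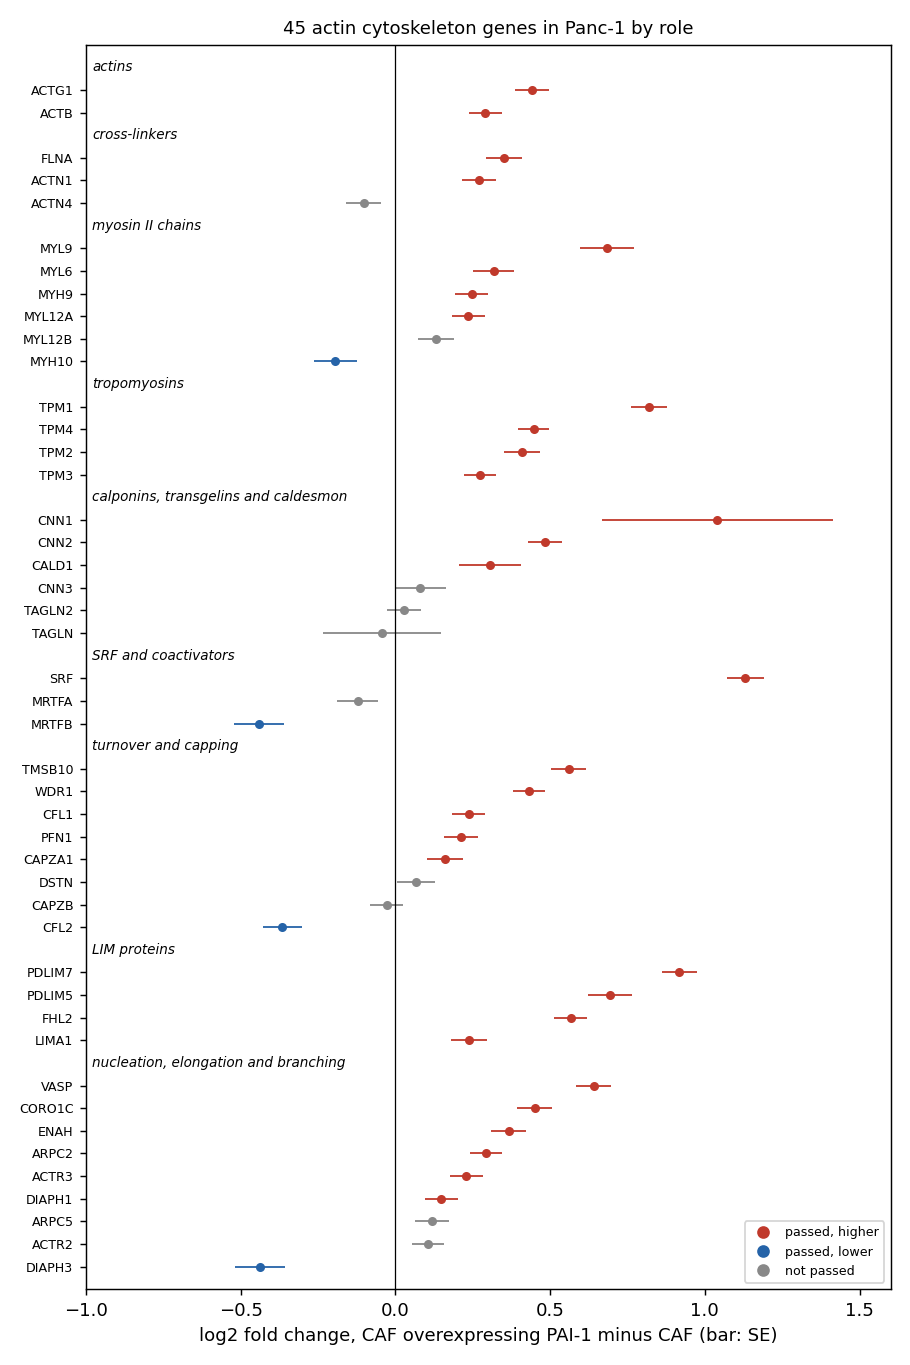
Log2 fold change of each of the 45 genes, CAF overexpressing PAI-1 minus CAF, with its SE as a bar, ordered by role; colour gives the call over all genes tested. Tropomyosins and LIM proteins lie wholly to the right of 0, while MRTFB, DIAPH3, CFL2 and MYH10 are the 4 that were lower.

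Panc-1 expresses this system at a high level. Per length, that is in TPM computed here from the counts and the exonic length of each gene, 29 of the 45 stood in the uppermost 10% of tested genes, and their median percentile was 94.6. CNN1, a calponin typical of smooth muscle, stood lowest, at percentile 10.2. The most abundant per length were TMSB10, ACTB, ACTG1, ACTN4 and PFN1. TMSB10, at 13190.4 TPM with CAF overexpressing PAI-1 and 9189 TPM with CAF, was above ACTB, at 7685 TPM with CAF overexpressing PAI-1 and 6459 TPM with CAF. That order depends on the length over all annotated exons, 496 bases for TMSB10 and 3519 for ACTB. In CPM, ACTB was the higher, at 7530 against 1821 with CAF overexpressing PAI-1 and 6157 against 1235 with CAF. The sizes of the shares per length below depend on annotated exons in the same way.

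SRF (ENSG00000112658, chr6:43171299-43181507, plus strand, on GRCh38 as in GENCODE release 29), the transcription factor that binds CArG boxes, had the largest fold change in the set. It had 141, 135 and 137 CPM with CAF overexpressing PAI-1, against 63.8, 61.3 and 63.1 CPM with CAF. All libraries of the PAI-1 group were above all of the CAF group, and the spread within each group was small beside the gap. Its log2 fold change was 1.13 (SE 0.06), and SRF rose to 137 ± 3.09 CPM, against 62.7 ± 1.29 CPM with CAF (SD, n = 3 each).

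Neither coactivator rose. MRTFB (ENSG00000186260, chr16:14071321-14266773, plus strand), which carries SRF's response to free actin, had 131, 99.3 and 125 CPM with CAF overexpressing PAI-1, against 160.1, 152 and 171 CPM with CAF. The groups did not overlap, and replicate 2 was the lowest. MRTFB fell, with a log2 fold change of -0.44 (SE 0.08), and was still lower, at -0.33, without replicate 2. MRTFA (ENSG00000196588, chr22:40410281-40636702, minus strand), its paralog, had 62.4, 62.9 and 61.3 CPM with CAF overexpressing PAI-1 and 70.9, 67.5 and 64.4 CPM with CAF. These groups did not overlap either, but the log2 fold change of -0.12 (SE 0.07) did not pass the threshold. It passed, as lower, when libraries were scaled by size alone.

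Both cytoplasmic actins, the monomers of the filament, rose. ACTG1 (gamma-actin, ENSG00000184009, chr17:81509971-81523847, minus strand) had 5664, 5269 and 5425 CPM with CAF overexpressing PAI-1, against 3864, 4125 and 4055 CPM with CAF. ACTB (beta-actin, ENSG00000075624, chr7:5527147-5563784, minus strand) had 7569, 7718 and 7303 CPM with CAF overexpressing PAI-1 and 6100.3, 6280.3 and 6092 CPM with CAF. For neither gene did the groups overlap. The log2 fold change was 0.44 (SE 0.05) for ACTG1 and 0.29 (SE 0.05) for ACTB. Per length, ACTG1 made up 46.0% ± 1.27 of the actin transcripts of this pair with CAF overexpressing PAI-1 and 43.4% ± 0.63 with CAF (SD, n = 3 each). Named pseudogenes of these actins held at most 0.05498% of the counts of their parent gene. The labels do not tell how reads shared between such near-identical copies were assigned, so the split is uncertain to that extent.

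Of the cross-linkers, which tie filaments into bundles and nets, 2 of 3 rose. FLNA (filamin A) had a log2 fold change of 0.35 and ACTN1 (alpha-actinin-1) of 0.27. ACTN4 (alpha-actinin-4, ENSG00000130402), the dominant alpha-actinin of these cells, had 3978, 3467 and 3730.0 CPM with CAF overexpressing PAI-1, against 4049, 3979 and 3976 CPM with CAF. These values overlapped, and the log2 fold change of -0.10 (SE 0.06) did not pass; without replicate 1 of the PAI-1 group, and with library size alone, it passed as lower. ACTN1 thus took a larger part of the pair per length, 8.10% ± 0.07 with CAF overexpressing PAI-1 against 6.38% ± 0.02 with CAF (SD, n = 3 each).

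All 4 tropomyosins, the coiled coils that lie along the filament, rose. TPM1 (ENSG00000140416, chr15:63042632-63071915, plus strand) had 186, 205 and 199 CPM with CAF overexpressing PAI-1, against 115, 106 and 113 CPM with CAF. TPM4 had 579, 564 and 558 CPM with CAF overexpressing PAI-1, against 411, 420.2 and 417 CPM with CAF. The lowest library with CAF overexpressing PAI-1 was well above the highest with CAF for both. TPM1 had a log2 fold change of 0.82 (SE 0.06) and TPM4 of 0.45 (SE 0.05), while TPM2 was at 0.41 and TPM3 at 0.27. TPM1 was the least abundant of the 4, and its share of tropomyosin transcripts per length was 5.52% ± 0.11 with CAF overexpressing PAI-1, against 4.09% ± 0.21 with CAF. TPM3, the one with the smallest fold change, made up 35.2% ± 0.82 with CAF overexpressing PAI-1 and 38.2% ± 0.51 with CAF (SD, n = 3 each).

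Among the chains of non-muscle myosin II, the motor that pulls filaments past each other, 4 of 6 rose and 1 fell. MYL9 (ENSG00000101335, chr20:36541484-36551447, plus strand), a regulatory light chain known as an SRF target in contractile cells, had 49.4, 52.0 and 43.5 CPM with CAF overexpressing PAI-1, against 26.8, 29.6 and 34.0 CPM with CAF. The groups were apart, with a log2 fold change of 0.68 (SE 0.09). Its near relatives MYL12A and MYL12B, which carry most of the regulatory light chain message, were at 0.23 and 0.13, and MYL12B did not pass. Per length, MYL9 took 5.47% ± 0.45 of the 3 regulatory light chains with CAF overexpressing PAI-1 and 3.92% ± 0.42 with CAF (SD, n = 3 each). The heavy chain MYH9 was at 0.25 and the essential light chain MYL6 at 0.32.

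MYH10, the heavy chain of the B isoform, fell, but its libraries overlapped. It had 68.2, 66.9 and 79.0 CPM with CAF overexpressing PAI-1, against 78.8, 83.1 and 83.3 CPM with CAF, a log2 fold change of -0.19 (SE 0.07). The call was lost in DESeq2 and when either replicate 1 or 2 of the PAI-1 group or replicate 2 or 3 of the CAF group was left out. Its part of the heavy chain pair per length was 2.95% ± 0.31 with CAF overexpressing PAI-1 and 3.96% ± 0.21 with CAF (SD, n = 3 each). Exons of MYH10 overlap NDEL1 on the opposite strand and those of MYL6 overlap SMARCC2, whose counts were 92.17% and 43.63% of the gene's own. The labels do not tell whether counting used strand, so both values are uncertain.

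**Figure D3:**
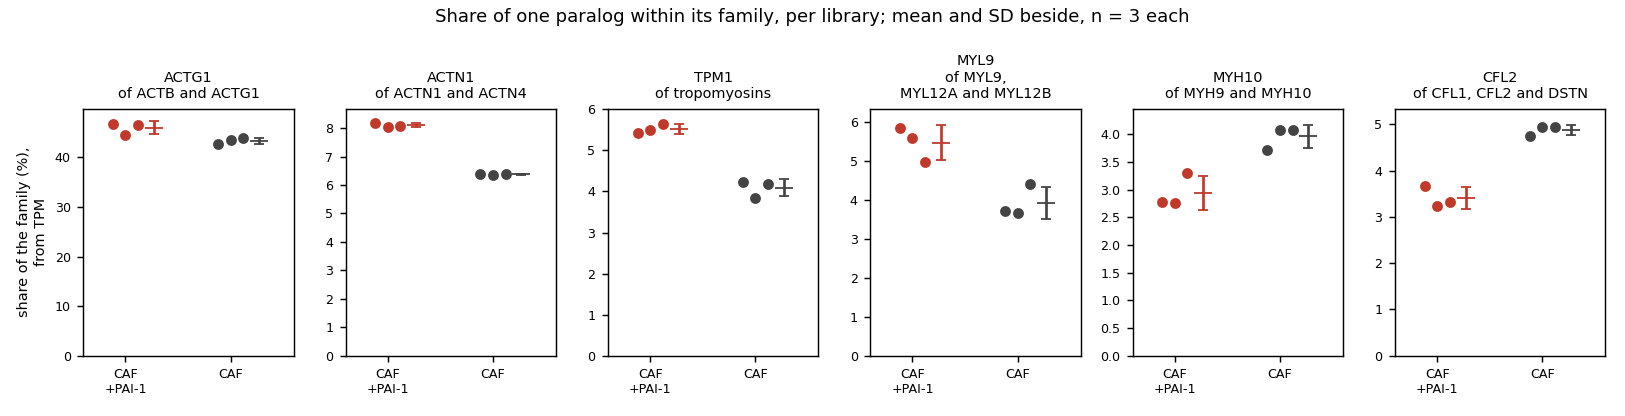
Share of 1 paralog in its family in each library, in percent of the family's TPM (vertical axes from 0), with mean and SD beside the points, n = 3 each, CAF overexpressing PAI-1 at the left of each panel. ACTG1, ACTN1, TPM1 and MYL9 have larger shares with CAF overexpressing PAI-1 and MYH10 and CFL2 smaller ones, with no overlap between groups.

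Calponins, transgelins and caldesmon decorate filaments, and several are textbook SRF targets of smooth muscle; 3 of the 6 rose. CNN2 (calponin-2, ENSG00000064666) had 279.6, 275 and 249.7 CPM with CAF overexpressing PAI-1, against 188, 194 and 194 CPM with CAF. The groups were apart, with a log2 fold change of 0.48 (SE 0.06). CNN1 was near the limit of detection, with 1.69, 1.89 and 1.62 CPM with CAF overexpressing PAI-1 and 1.21, 0.819 and 0.432 CPM with CAF. With 20, 13 and 6 counts in the CAF libraries, CNN1 passed the filter on low counts through the PAI-1 group, where it was high. Nothing is therefore read from its call, which is 1 of the 3. The log2 fold change of CNN1 was 1.04 (SE 0.37). The call was lost in DESeq2 and in 5 of the 6 fits without 1 library, all except that without CAF replicate 1. CALD1 was at 0.31, a call lost in DESeq2, with library size alone and when PAI-1 replicate 1, CAF replicate 1 or CAF replicate 3 was left out. TAGLN (SM22-alpha), a classic SRF target, had 4.60, 5.01 and 6.53 CPM with CAF overexpressing PAI-1, against 6.98, 4.54 and 5.11 CPM with CAF. These overlapped throughout, at a log2 fold change of -0.04 (SE 0.19), and PCSK7, which shares exonic bases with TAGLN on the opposite strand, had 725.2% of its counts. The abundant relative TAGLN2 was at 0.03 and CNN3 at 0.08, and neither passed.

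The 4 LIM proteins of the set, scaffolds that sit on stress fibres and at adhesions, had the highest median of any role, 0.63, and all rose. PDLIM7 (enigma, ENSG00000196923, chr5:177483394-177497606, minus strand) had 255, 228 and 246 CPM with CAF overexpressing PAI-1, against 135, 123 and 127 CPM with CAF. PDLIM5 (enigma homolog, ENSG00000163110) had 70.2, 64.5 and 65.8 CPM with CAF overexpressing PAI-1, against 41.1, 43.4 and 39.4 CPM with CAF. FHL2 (ENSG00000115641), a LIM-only cofactor described as an SRF target in mouse, had 409, 408 and 426 CPM with CAF overexpressing PAI-1, against 266, 288 and 285 CPM with CAF. In each of the 3 the groups were far apart relative to their spread. The log2 fold changes were 0.92 (SE 0.06) for PDLIM7, 0.69 (SE 0.07) for PDLIM5 and 0.57 (SE 0.05) for FHL2. LIMA1 (EPLIN), which stabilises bundled filaments, was at 0.24.

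**Figure D4:**
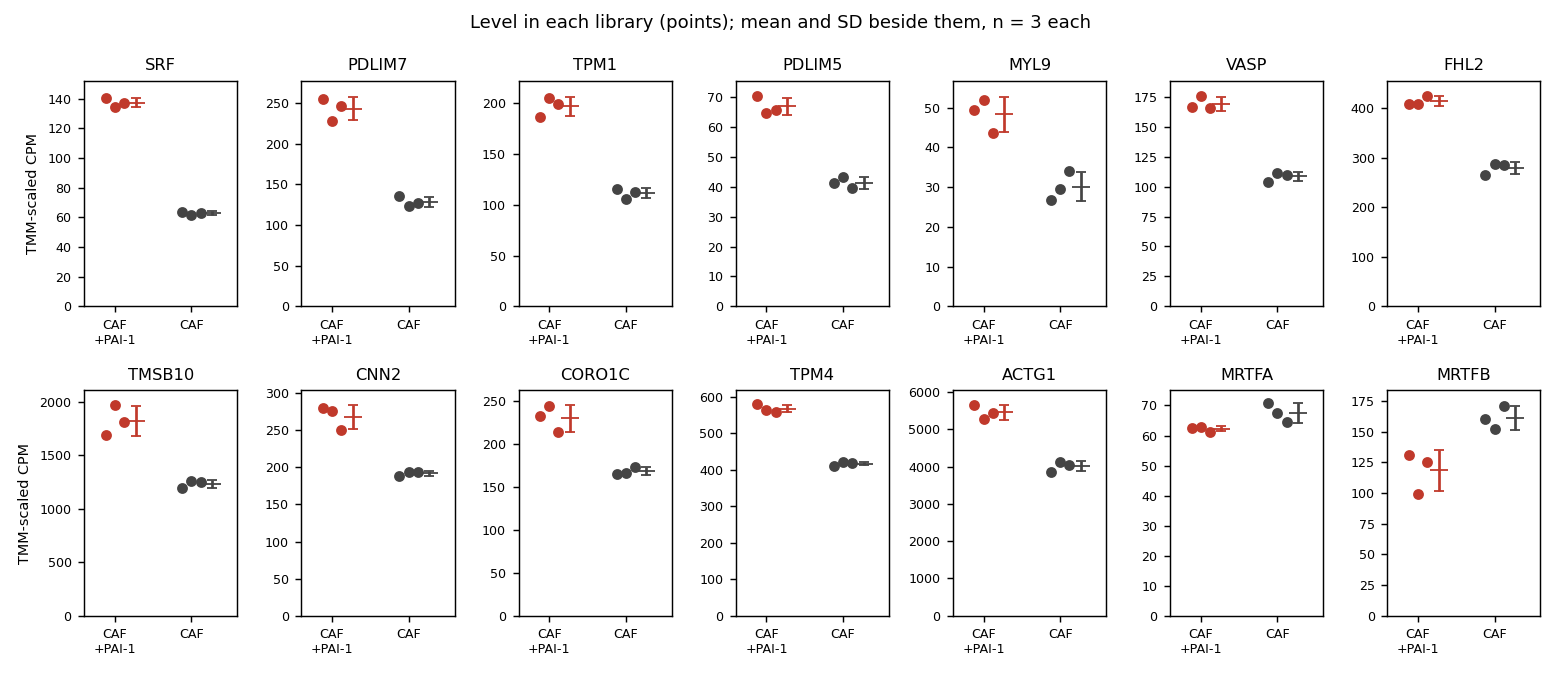
TMM-scaled CPM in each library (points) of the 12 genes with the largest changes and of MRTFA and MRTFB, with mean and SD beside the points, n = 3 each; each vertical axis starts at 0 and CAF overexpressing PAI-1 is at the left. The first 12 panels have the points of CAF overexpressing PAI-1 above those of CAF, and the last 2 have them below.

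Proteins of filament turnover and capping were mixed, with 5 of 8 higher and 1 lower. TMSB10 (thymosin beta-10, ENSG00000034510, chr2:84905625-84906675, plus strand), a small peptide that holds monomers out of filaments, had 1685, 1967 and 1809.5 CPM with CAF overexpressing PAI-1, against 1193, 1259 and 1253 CPM with CAF. PFN1 (profilin-1, ENSG00000108518), which hands monomers to growing ends, had 986, 1052 and 938 CPM with CAF overexpressing PAI-1, against 831, 887 and 852 CPM with CAF. Neither gene's groups overlapped. TMSB10 had a log2 fold change of 0.56 (SE 0.06) and PFN1 of 0.21 (SE 0.05). WDR1, a partner of cofilin, was at 0.43. CFL1, the non-muscle cofilin that severs filaments, was at 0.24, whereas CFL2, the cofilin best known from muscle, fell by 0.37 on the log2 scale. CFL2 had 86.2, 84.7 and 80.9 CPM with CAF overexpressing PAI-1, against 102, 115 and 108 CPM with CAF, and the groups were apart. Its share of the cofilin family per length was 3.41% ± 0.23 with CAF overexpressing PAI-1 and 4.88% ± 0.11 with CAF (SD, n = 3 each). The capping protein subunit CAPZA1 was at 0.16. That call was lost with library size alone, with a filter at a mean of 10 CPM and when PAI-1 replicate 2, CAF replicate 1 or CAF replicate 3 was left out. CAPZB at -0.03 and DSTN (destrin), at 0.07, did not pass.

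Among proteins that start, lengthen or branch filaments, 6 of 9 rose and 1 fell. VASP (ENSG00000125753), which speeds filament elongation at adhesions and leading edges, had 166, 176 and 165 CPM with CAF overexpressing PAI-1, against 104, 111 and 110.0 CPM with CAF. CORO1C (coronin-1C, ENSG00000110880), which binds Arp2/3 branches, had 232, 244 and 213 CPM with CAF overexpressing PAI-1, against 165, 166 and 173 CPM with CAF. Both had groups apart, at log2 fold changes of 0.64 (SE 0.06) and 0.45 (SE 0.06). ENAH (Mena), the relative of VASP, was at 0.37. Of the 4 Arp2/3 subunits in the set, ARPC2 at 0.29 and ACTR3 at 0.23 rose. ARPC5 at 0.12 and ACTR2 at 0.10 did not pass, although their groups did not overlap.

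The formins, which build unbranched filaments, went separate ways. DIAPH3 (mDia2), which also has a role in cytokinesis, had 34.3, 33.9 and 35.9 CPM with CAF overexpressing PAI-1, against 50.5, 48.8 and 41.8 CPM with CAF. The groups were apart and DIAPH3 fell by 0.44 on the log2 scale. DIAPH1 was at 0.15, a call lost with library size alone, with a filter at a mean of 10 CPM and without PAI-1 replicate 1 or 3 or CAF replicate 2 or 3.

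The 7 genes with an exact CArG box, SRF, FHL2, CNN2, TPM4, ACTG1, FLNA and ACTN1, were all higher with CAF overexpressing PAI-1. In the whole set, 31 of the 45 were higher. The median log2 fold change of the 7, SRF among them, was 0.45, beside 0.23 for the 35 genes of the set with a window and no exact box. Since results of this contrast chose the set, nothing is read from this order. Over all tested genes with a window, the median was 0.05 for the 163 with an exact box, 48 of them higher and 20 lower, and 0.00 for the rest. Among 14 SRF and MRTF targets outside the set with a window, the order was the other way: the 5 with an exact box had a median of 0.16, with 2 higher and 1 lower, beside 0.61 for those without. Of the 6 genes of the set matched with 1 mismatch, CALD1, MYL12A and VASP were higher, CFL2 was lower, and ACTN4 and CAPZB did not pass.

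Other genes of the pathway were taken for their known roles, although results of these data were known when the lists were made. Of 22 further SRF and MRTF targets, 16 passed the filter, 10 rose and 1 fell, with a median log2 fold change of 0.42; without PAI-1 replicate 2, 11 rose and 1 fell. As for the set, 17.2% of all genes tested were higher and 15.0% lower, and the lists that follow are to be read beside those shares. CTGF, a secreted matricellular protein and classic MRTF and YAP target, had 505, 504 and 500.1 CPM with CAF overexpressing PAI-1, against 124, 139 and 137 CPM with CAF (log2 fold change 1.92, SE 0.06, adjusted p = 1.86e-23, edgeR's quasi-likelihood test with Benjamini-Hochberg adjustment). THBS1 (thrombospondin-1) was at 1.65 (adjusted p = 2.18e-16), ZYX (zyxin, an adhesion LIM protein) at 1.31 (adjusted p = 1.74e-18) and VCL (vinculin, which couples adhesions to actin) at 0.79 (adjusted p = 5.30e-13), all by edgeR. In all 4 genes every library with CAF overexpressing PAI-1 was above every library with CAF. The one that fell was LPP, a relative of zyxin, at -0.30 (adjusted p = 0.000759, edgeR). Muscle members of this list were barely present: ACTA2 and ACTG2, the smooth muscle actins, had 16 and 20 counts in the 3 PAI-1 libraries together and 27 and 8 in the 3 CAF libraries.

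The list of immediate early genes served by SRF with the ternary complex factors had 10 genes, and all rose. Of these, EGR2, with 13 counts in the 3 CAF libraries together, and EGR3, with 33, passed the filter on low counts through the PAI-1 group, where they were high. A filter at a mean of 10 CPM left 5 genes, all higher. EGR1, a zinc finger transcription factor, had 535, 581 and 583 CPM with CAF overexpressing PAI-1, against 16.9, 14.9 and 17.2 CPM with CAF (log2 fold change 5.12, SE 0.07, adjusted p = 3.25e-33, edgeR). FOSB was at 2.35 (adjusted p = 2.26e-17), IER2 at 1.78 (adjusted p = 1.63e-20) and MCL1, an anti-apoptotic protein, at 1.31 (adjusted p = 1.98e-19), all by edgeR. The difference between this list and the actin set was not tested. The 4 detected SRF cofactors outside the set had a median of 0.07, and 0 passed in edgeR, with an unadjusted p under 0.05 in 1 of them, SCAI. Without PAI-1 replicate 2, 1 cofactor was higher and 1 lower, and with library size alone 1 was lower. SCAI, a suppressor of MRTF, was at -0.37 (adjusted p = 0.0663), ELK1 at 0.13 (adjusted p = 0.152), ELK4 at 0.08 (adjusted p = 0.375) and ELK3 at 0.06 (adjusted p = 0.496), all by edgeR. MYOCD (myocardin), the muscle coactivator, had 0 counts in every library.

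**Figure D5:**
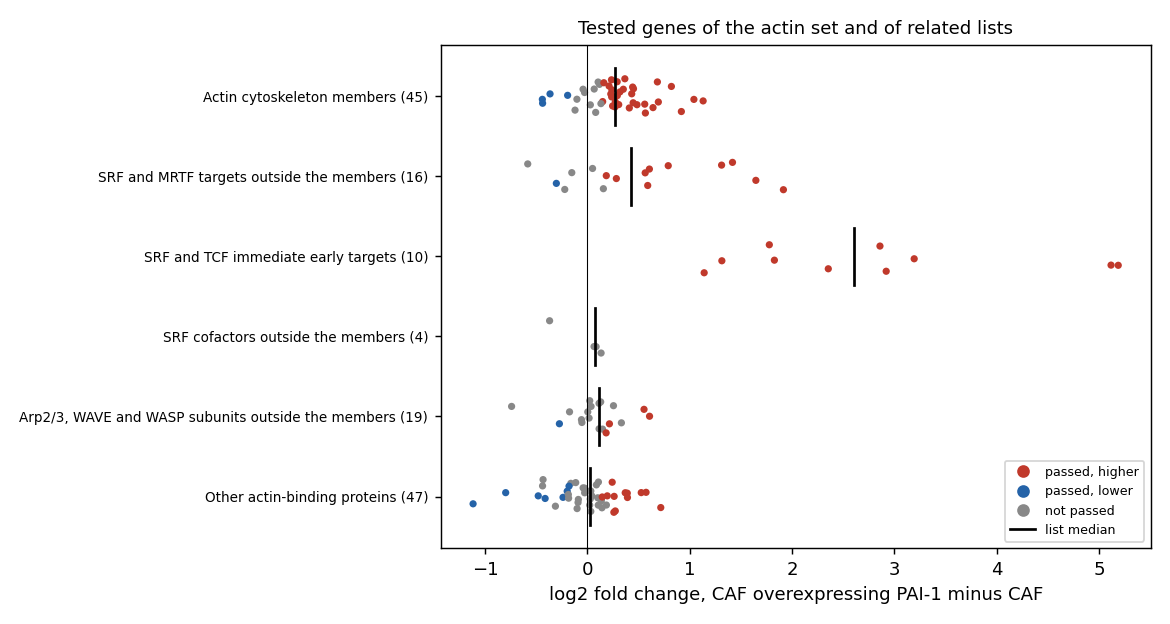
Log2 fold change of every tested gene in the actin set and in 5 related lists, CAF overexpressing PAI-1 minus CAF; the number of genes is in brackets, colour gives the call over all genes tested and the black line is the list median. All points of the immediate early targets lie to the right of 0, while the other actin-binding proteins, with a median of 0.03, spread to both sides.

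Of 19 further subunits of the Arp2/3, WAVE and WASP machinery, which builds branched networks, 4 rose and 1 fell, and the median log2 fold change was 0.11. ARPC5L, a paralog of ARPC5, had 62.5, 65.9 and 58.6 CPM with CAF overexpressing PAI-1, against 42.1, 42.0 and 38.5 CPM with CAF (log2 fold change 0.61, adjusted p = 4.18e-08, edgeR). The Arp2/3 subunit ARPC4 was at 0.55 (adjusted p = 1.66e-06), the WAVE subunit CYFIP1 at 0.21 (adjusted p = 0.00184) and WASF1 at -0.27 (adjusted p = 0.00296), all by edgeR. Without PAI-1 replicate 1, or with library size alone, 2 of these subunits were lower in place of 1.

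Among 54 other actin-binding proteins, 47 passed the filter, 12 rose and 7 fell, with a median log2 fold change of 0.03; the shares over all genes tested were 17.2% higher and 15.0% lower. Without PAI-1 replicate 2, 14 were higher and 6 lower; without CAF replicate 3 the number lower was 4, and with library size alone 14. EZR (ezrin, which links actin to the membrane) had 912, 954 and 874 CPM with CAF overexpressing PAI-1, against 624, 639 and 641 CPM with CAF (log2 fold change 0.53, adjusted p = 9.39e-10, edgeR). COTL1, a coactosin-like binder of filaments, was at 0.39 (adjusted p = 6.58e-07, edgeR). MARCKS, a membrane-bound binder of actin, was at -0.48 (adjusted p = 2.41e-07) and ANLN (anillin, of the cytokinetic ring) at -0.41 (adjusted p = 2.28e-07), both by edgeR. TMSB4X, the relative of TMSB10, was at 0.09 (adjusted p = 0.233, edgeR), with 856, 971 and 937 CPM with CAF overexpressing PAI-1 and 863, 868 and 872 CPM with CAF.

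Fibroblasts also express much of this set, so markers of cell types other than Panc-1 stand beside it. The fibroblast list had 24 genes, of which 15 stayed below 1 CPM throughout and 4 had 0 counts in all libraries, namely SFRP2, DPT, MFAP5 and TWIST1. DCN and LUM, proteoglycans made in quantity by fibroblasts, had 3 counts each in the PAI-1 libraries together and 0 and 1 in the CAF libraries, and PDGFRA had 0 in the PAI-1 libraries and 1 in the CAF libraries. COL1A2 had 2 counts in each group. The summed level of the list was 1072 to 1189 CPM with CAF overexpressing PAI-1 and 910.3 to 934.6 CPM with CAF. It came mainly from COL5A2, at 384 to 426 CPM with CAF overexpressing PAI-1 and 372 to 393 CPM with CAF, from S100A4, at 276 to 347 CPM with CAF overexpressing PAI-1 and 179.8 to 203 CPM with CAF, and from COL1A1. Of the 9 tested, COL1A1, COL5A1 and S100A4 rose and FBN1 fell.

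The 10 smooth muscle markers summed to 5.96 to 7.43 CPM with CAF overexpressing PAI-1 and 5.83 to 7.65 CPM with CAF. Of the 4 tested only CNN1, which is in the actin set, passed, and as above nothing is read from its call. MYH11 was at 1.56 to 2.33 CPM with CAF overexpressing PAI-1 and 1.58 to 3.22 CPM with CAF, and RGS5 at 1.08 to 1.23 CPM with CAF overexpressing PAI-1 and 1.34 to 1.73 CPM with CAF. Epithelial markers summed to 2306 to 2569 CPM with CAF overexpressing PAI-1 and 2085 to 2201 CPM with CAF, with KRT7, KRT8, KRT18 and KRT19 higher and CLDN4 lower. Endothelial and leukocyte lists stayed under 7 CPM in sum in every library. Of the 6 endothelial markers only KDR was tested, and it was higher, with 2.44, 1.89 and 1.23 CPM with CAF overexpressing PAI-1, against 0.971, 0.945 and 0.575 CPM with CAF (log2 fold change 1.13, adjusted p = 0.0172, edgeR). KDR, with 39 counts in the 3 CAF libraries together, passed the filter on low counts through the PAI-1 group, where it was high. Nothing is therefore read from its call. VWF had 3 counts in the PAI-1 libraries together and 8 in the CAF libraries. Of the leukocyte markers only CD14 was tested, at 0.12 (adjusted p = 0.647, edgeR), and PTPRC had 2 counts in the PAI-1 libraries and 18 in the CAF libraries. The part of these markers in the actin values was not tested.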

How the data were processed

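RNA of 6 Panc-1 libraries was sequenced. The authors deposited whole-number counts per gene, with 58735 GENCODE release 29 identifiers, an annotation of GRCh38; RSEM, Bowtie2, BWA and the build hg19 are listed, without versions or roles, per the submitters' processing notes, and the counting step and its use of strand are not given in the sources used here. Names turned into dates (27) were restored by identifier. Replicate numbers were not used as pairs.

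The test was that of edgeR 4.0.16, run in R 4.3.3 (filterByExpr with minimum count 10 and total 15, TMM, robust glmQLFit, glmQLFTest), PAI-1 group minus CAF group, with Benjamini-Hochberg adjustment over 14960 genes, threshold 0.05; "rose" and "fell" mean past it. SE is the log2 fold change over the root of F. CPM levels of genes are TMM-scaled, and TPM uses union exonic length. The common biological coefficient of variation was 6.06%. Scripts were tested on simulated data. Intervals were not needed, and depth is given as the level of 3 counts, which covers counting error only.

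The 45 genes and all lists were chosen with earlier results of these data known. Named in full were the 12 largest changes at 5 CPM or more, the 5 most abundant per length, SRF, MRTFA and MRTFB, and, chosen after their values were seen, MYH10, CNN1, TAGLN, CFL2 and DIAPH3. Of each other list the 4 smallest p-values were named, with LPP and TMSB4X added after their values were seen, and of marker lists the 2 most abundant genes; further markers were named after their values were seen. Alternatives were RLE scaling, library size alone, no filter, a mean of 10 CPM, DESeq2 1.42.0, limma-voom (limma 3.58.1), no robust estimation, a block for replicate number, and leaving out each library in turn. Some results are not reported here.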

Additional observations from a re-analysis of the deposited data

How the results depend on the processing

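Of the 45 actin genes, 27 that were higher and 3 that were lower kept their call under all alternatives that tested them. MYH10, CNN1, CALD1, CAPZA1 and DIAPH1 lost theirs under at least 1, and ACTN4, MRTFA, MYL12B and ACTR2 gained one; the cause was not tested. Leaving out 1 library gave 27 to 30 higher and 3 to 4 lower genes of the set, and a median log2 fold change of 0.24 to 0.29. In the same fits TAGLN ran from -0.2086 to 0.1655, TAGLN2 from -0.0183 to 0.0608, CNN3 from -0.0278 to 0.1424 and DSTN from -0.0092 to 0.1181 on the log2 scale, all not passed. Lower genes then numbered 1 to 2 of the Arp2/3, WAVE and WASP subunits, 0 to 1 of the SRF cofactors (higher 0 to 1) and 4 to 7 of the other actin-binding proteins. Library size alone gave a median of 0.20, TAGLN2 at -0.0378, 1 SRF cofactor lower, 2 Arp2/3 subunits lower and 14 other actin-binding proteins lower, while the median of all genes shifted to -0.07. A filter at a mean of 10 CPM, which tests fewer genes, left 5 immediate early targets higher and 2 Arp2/3 subunits lower. A CArG box with at most 1 mismatch was in 13 genes in place of 7. With the replicate number as a block, 5069 genes changed, 32 of the set were higher (MYL12B added) and 4 lower. Deviations from the group means correlated at 0.0023 to 0.0122 between same-numbered libraries. With 3 libraries a group, such values over all tested genes cannot tell whether same-numbered libraries were prepared together. Genes near 1 CPM, such as CNN1, are limited by depth.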

Other observations

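LIM proteins outside the set were chosen for a look after their values were seen. PDLIM2 had 8.80, 11.8 and 11.7 CPM with CAF overexpressing PAI-1, against 7.04, 6.43 and 6.11 CPM with CAF (log2 fold change 0.72, adjusted p = 0.000313, edgeR's quasi-likelihood test), and FHL3 was at 0.57 (adjusted p = 6.93e-05, edgeR). PDLIM1, the abundant relative, was at 0.11 (adjusted p = 0.166, edgeR), and PDLIM3 had 0 counts. The LIM proteins PDLIM4 at 0.14, FHL1 at 0.16 and LASP1 at 0.03 did not pass. Of those given above, ZYX rose and LPP fell. CSRP1, a LIM protein known as an SRF target, was at 0.59 (adjusted p = 2.51e-10, edgeR). Tropomodulins cap pointed ends. TMOD2 had 2.03, 2.54 and 1.36 CPM with CAF overexpressing PAI-1, against 4.67, 3.28 and 4.89 CPM with CAF (log2 fold change -1.12, adjusted p = 0.000755, edgeR). TMOD1 was also lower, at -0.80 (adjusted p = 0.0277, edgeR). The abundant TMOD3 was at 0.11 (adjusted p = 0.194, edgeR).

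MYO1C, a class I myosin, had 707, 480.3 and 688 CPM with CAF overexpressing PAI-1, against 627, 598 and 622 CPM with CAF, so its replicate 2 lay below all other libraries.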
